A study of Mus musculus with 15 samples.

Results

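Heart muscle takes up glucose, splits it by glycolysis and stores part of it as glycogen, and 35 genes of these steps were followed in the left ventricle of mice with chronic kidney disease. The genes were picked by symbol as the transporters, the enzymes from hexokinase to pyruvate kinase, and the enzymes and targeting proteins of glycogen. All 35 were found among the 55487 genes counted in each library, and all 35 were among the 20718 genes with enough counts to test. The kidney disease group (n = 7) carried a Col4a5 mutation, which the labels call a knockdown in one place and a knockout in another. Col4a5 makes 1 of the type IV collagen chains that hold up the kidney's glomerular filter, and per the labels the mutants had reached the counterpart of human stage 4 to 5 disease. The other group (n = 8) were wild-type littermates. All animals were male, ate normal chow and were killed at 225 days, and the anaesthetic is given as isoflurane in one label and as ketamine with xylazine in another. Whether they had been fasted is not given in the sources used here. RNA came from a piece of the midline free wall, and the study set out to measure cardiac metabolism and RNA in this model.

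Glucose enters the cardiomyocyte mainly through GLUT4, which insulin and contraction move to the cell surface, and through GLUT1, which sits there at rest. Hexokinase traps it, phosphofructokinase commits it to glycolysis under the control of fructose 2,6-bisphosphate, and the enzymes from aldolase to pyruvate kinase carry it to pyruvate. Glycogen synthase and branching enzyme build the glycogen store, phosphorylase releases it, and phosphorylase kinase and glycogen-bound phosphatase set the balance. The adult heart draws most of its energy from fatty acids, and a larger share from glucose under load.

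Library totals ran from 54263014 to 65519279 counts in kidney disease and from 48748379 to 57962094 in wild type, and the lowest count of any of the 35 genes in any library was 92. Values below are TMM-scaled CPM, that is counts scaled to a common library total after correction for composition with edgeR's TMM factor. Differences are log2 changes of kidney disease minus wild type from edgeR's quasi-likelihood test over all 20718 genes, with Benjamini-Hochberg adjusted p-values and a threshold of 0.05. As a check of the labels, Col4a5 lay between 9.19 and 16.2 CPM in kidney disease and between 50.4 and 65.7 CPM in wild type (log2 change -2.08, SE 0.11, adjusted p = 2.997e-09). Cardiomyocyte markers were abundant in every library. The sum of 6 atrial markers had a low of 31.8 CPM (kidney disease 6), a median of 1147 CPM and a high of 1691 CPM in kidney disease. In wild type it had 34.7 CPM (wild type 5), 681 CPM and 1401 CPM (wild type 7). The sum of 9 adipocyte markers was highest in kidney disease 6, at 490 CPM, against a high of 376 CPM in wild type. The part of such tissue in the values below was not tested. Of 9 skeletal muscle markers, 5 (Myh1, Myh2, Myh4, Tnnt3 and Pvalb) were under 1 CPM in every library. The others were Actn3 (up to 1.51 CPM), Mybpc2 (15.1 to 30.1 CPM), Acta1 (79.7 to 306.5 CPM) and the muscle creatine kinase Ckm (783 to 1444 CPM), of which heart muscle also expresses Acta1 and Ckm. In 3 kidney disease and 2 wild-type libraries the gene with the most counts was Ttn, the giant sarcomere protein, and in the other 10 it was mt-Co1.

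A pair of libraries stood apart in these genes. Wild type 7 was the lowest of its group in 24 of the 35 genes and in 15 of 15 glycolytic enzymes, from the hexokinases to pyruvate kinase. Kidney disease 6 was the highest of its group in 18 of the 35 genes and in 12 of the 15 enzymes. It was also the lowest of its group in 6 of the 35 genes, 2 of them among the 15 enzymes. Several results that rest on them are therefore also given without both. Both were chosen after these values were seen. Leaving them out moves a gene or a ratio downward by construction where kidney disease 6 was highest and wild type 7 lowest. Not every gene moved downward, and Pfkfb3 went from -0.0429 to 0.0306.

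**Figure D1:**
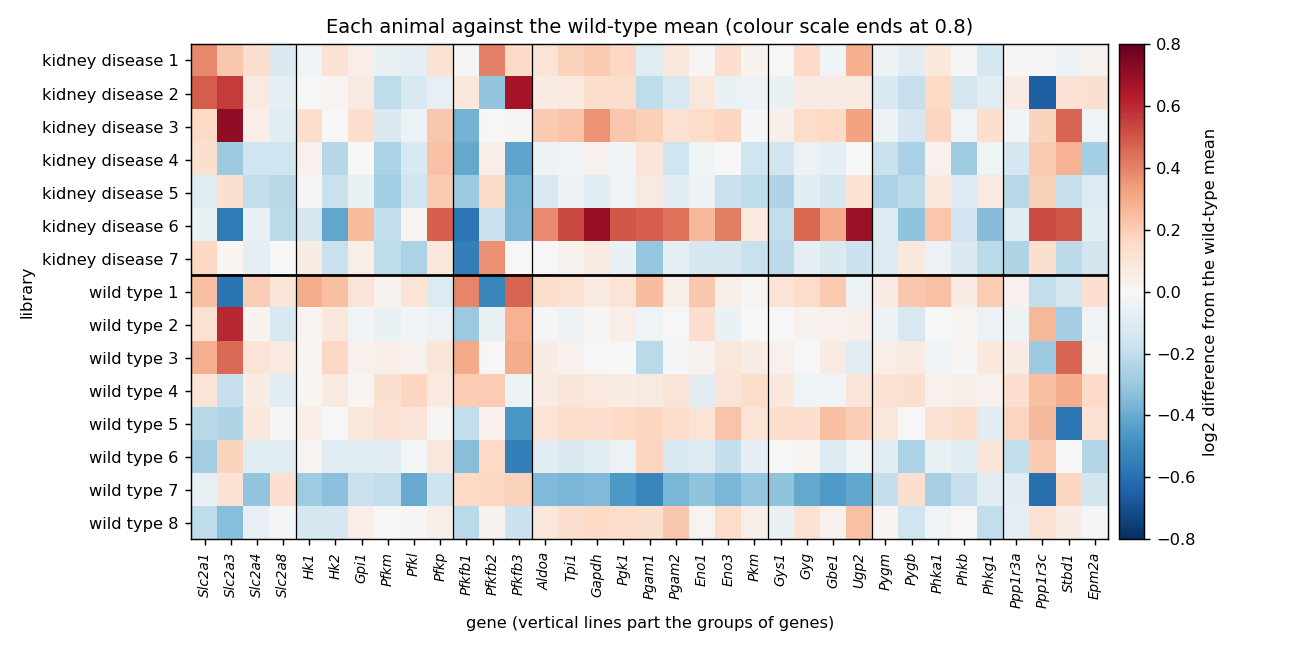
Colour shows the log2 difference of each gene (columns, grouped from transport at the left to glycogen targeting at the right) in each animal (rows, kidney disease above wild type) from the wild-type mean. Kidney disease 6 is red and wild type 7 is blue across the columns from Aldoa to Pgam2.

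None of the 35 genes passed the adjusted threshold in either direction, where 0.811% of all genes tested passed as higher, 0.473% as lower and 1.28% in either direction. The lowest adjusted p was 0.1438, for Pfkm. At an unadjusted p under 0.05, 2 of the 35 genes were higher (6.84% of all genes tested) and 6 were lower (5.55% of all genes tested). DESeq2 called 0 higher and 1 lower, which was Pfkm, where it called 2.21% of its genes higher and 1.53% lower. Limma-voom called 0 in either direction, where it called 0.763% of all genes higher and 0.454% lower. No gene of the 35 had groups that did not overlap, against 0.565% of all genes tested.

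The spread between animals set how small a difference could be seen. The log2 change was above 0 in 20 genes and below 0 in 15, and it ran from -0.31 to 0.22. Its median was 0.0311, against 0.0042 over all genes tested, and the median size regardless of direction was 0.0991, against 0.11 over all genes tested. The coefficient of variation among wild-type animals was 11.2% in the median gene. The 95% intervals of 33 genes lay wholly within a log2 change of 0.5 in either direction, the exceptions being Slc2a3 and Pfkfb1. The lowest bound of any interval corresponded to a fold of 0.671 and the highest to a fold of 1.44. With kidney disease 6 and wild type 7 left out, 12 genes were above 0 and 23 below, and the median was -0.0627. In that fit 0 genes were called higher and 2 lower, Pfkm (-0.21, adjusted p = 0.0365) and Pfkl (-0.19, adjusted p = 0.0465), where 1.08% of all genes were called higher and 1.24% lower.

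**Figure D2:**
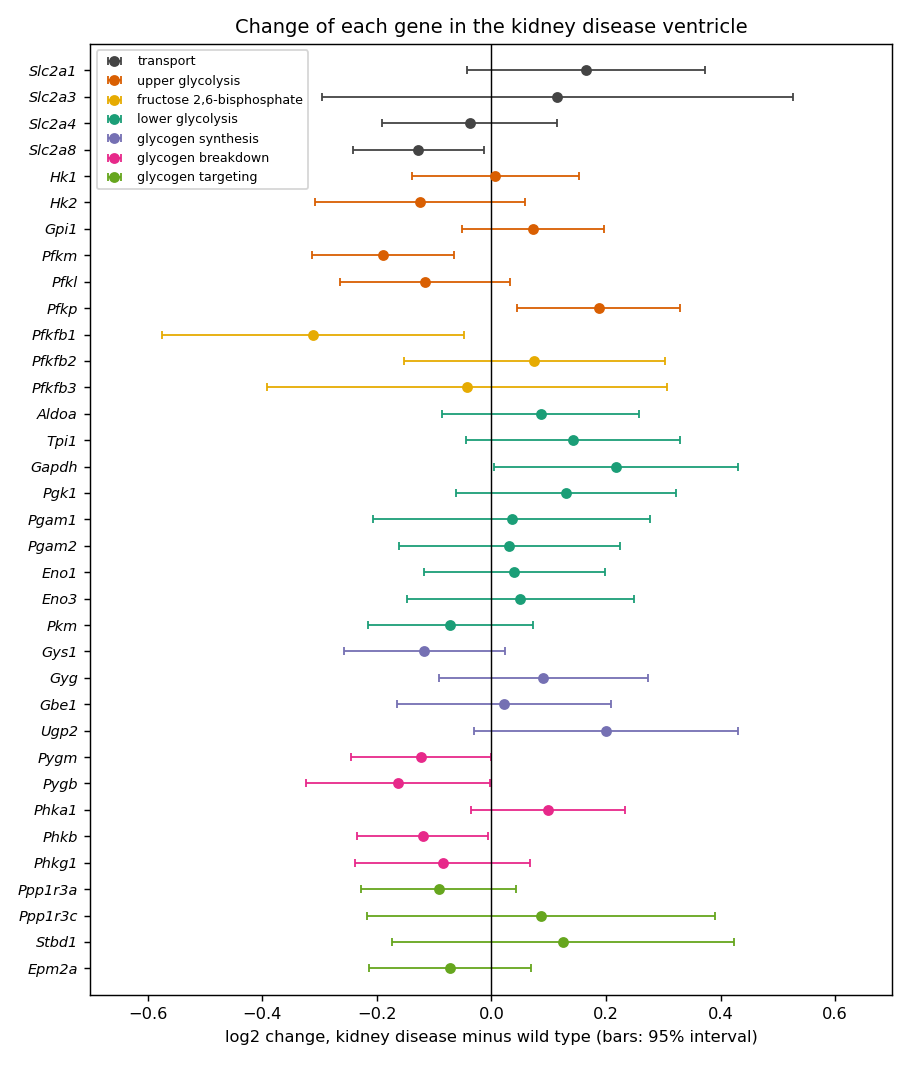
Points are the fitted log2 changes of the 35 genes, kidney disease (n = 7) minus wild type (n = 8), and bars are 95% intervals. The interval lies above 0 for Pfkp and Gapdh and below 0 for Pfkm, Pfkfb1, Slc2a8, Phkb, Pygb and Pygm, and no gene passed after adjustment over all genes.

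RNA of the 4 glucose transporter genes was mostly that of Slc2a4, which encodes GLUT4. Per length of exon it made up 89.9% ± 0.587 of the transcripts of the 4 transporter genes in kidney disease and 90.2% ± 1.07 in wild type (SD, n = 7 and 8). Length of exon, here and below, counts every annotated exon base of a gene. The longest protein-coding transcript can be far shorter, so shares and ranks per length depend on this choice. The Slc2a4 level had a low of 361.5 CPM, a median of 397.0 CPM and a high of 452 CPM in kidney disease, against 332 CPM, 427 CPM and 475 CPM in wild type. Every kidney disease animal lay within the wild-type range, and the log2 change of -0.04 (SE 0.07, 95% interval -0.19 to 0.12, adjusted p = 0.9003) did not pass.

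Slc2a1, the gene of the resting transporter GLUT1, had 19.1, 22.7 and 28.5 CPM as the lowest, median and highest kidney disease animal, against 16.8, 20.8 and 24.9 CPM in wild type. Of the 7 kidney disease animals, 5 were above the wild-type mean and 2 above the highest wild-type animal (log2 change 0.17, SE 0.10, interval -0.04 to 0.37, adjusted p = 0.547). Slc2a8, which encodes the intracellular transporter GLUT8, had 18.3, 19.7 and 21.4 CPM in kidney disease against 19.6, 21.3 and 23.5 CPM in wild type. For Slc2a8, 6 of 7 kidney disease animals lay below the wild-type mean (-0.13, SE 0.0546, adjusted p = 0.334). Slc2a3, the gene of the high-affinity transporter GLUT3, was the lowest of the 35 genes per length in wild type and the least precisely measured (0.12, SE 0.20).

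Within each library the ratio of Slc2a4 to Slc2a1 counts had a low of 15.3, a median of 17.2 and a high of 20.2 in kidney disease, against 17.0, 19.7 and 25.1 in wild type. All 7 kidney disease animals were below the wild-type mean of the log2 ratio, though the groups overlapped. The difference was -0.20 on the log2 scale (exact permutation p = 0.0401, adjusted p = 0.165 over the 9 ratios compared), which did not pass. Without kidney disease 6 and wild type 7 it was -0.27 (exact permutation, adjusted p = 0.042). Those libraries held the highest kidney disease ratio (20.2) and the lowest wild-type ratio (17.0). Leaving them out therefore widens the difference by construction, and the pass cannot count as a result.

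Hexokinase transcripts were mostly Hk2, the insulin-regulated enzyme of adult muscle, at 74.5% ± 2.04 of both hexokinases per length in kidney disease and 76.3% ± 1.05 in wild type (SD, n = 7 and 8). Hk2 had 427, 504 and 619 CPM as the lowest, median and highest kidney disease animal, against 452, 586 and 674 CPM in wild type. For Hk2, 5 of 7 kidney disease animals lay below the wild-type mean (-0.12, SE 0.0876, interval -0.31 to 0.06, adjusted p = 0.629). Hk1, the mitochondria-bound form found in most tissues, had 232, 256 and 279.6 CPM in kidney disease against 208, 257 and 312 CPM in wild type, with a log2 change of 0.0065 (SE 0.0698, interval -0.14 to 0.15).

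The Hk2 to Hk1 ratio had a low of 1.84, a median of 1.97 and a high of 2.48 in kidney disease, against 2.08, 2.21 and 2.50 in wild type. In 5 of 7 kidney disease animals it was below the lowest wild-type animal, while kidney disease 1 and 2 lay within the wild-type range. The log2 difference was -0.14 (exact permutation p = 0.0549, adjusted p = 0.165 over 9 ratios) and did not pass. Without kidney disease 1 it was -0.18 and passed (exact permutation, adjusted p = 0.0285), while leaving out any other single library gave adjusted p from 0.144 to 0.345. Without kidney disease 6 and wild type 7 it was -0.12 (exact permutation, adjusted p = 0.357). For Gpi1, the isomerase of the next step, the log2 change was 0.07 (SE 0.0589, adjusted p = 0.696).

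Of the 9 ratios compared, 1 passed its test, between 2 genes of phosphofructokinase, the committed step of glycolysis. The 3 genes of the enzyme encode subunits that assemble into tetramers: Pfkm the muscle form, Pfkl the liver form and Pfkp the platelet form. The ratio of Pfkp to Pfkm rose in kidney disease, by a fold of 1.29, although neither gene passed alone after adjustment over all genes. The ratios were chosen with earlier results of these data known, and Pfkm and Pfkp had the 2 smallest p of the 35 genes. Pfkm supplied 91.5% ± 0.541 of the phosphofructokinase transcripts per length in kidney disease and 92.1% ± 0.383 in wild type (SD, n = 7 and 8). Pfkl supplied 7.2% ± 0.403 in kidney disease and 6.87% ± 0.385 in wild type, and Pfkp 1.29% ± 0.164 in kidney disease and 0.997% ± 0.0687 in wild type. Pfkp has 13401 exon bases, against 4145 in its longest protein-coding transcript, and Pfkm has 3340 against 2879. Shares by transcript length were not computed.

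The stretches of 250 bases upstream of both genes are shown because this ratio is the one that passed its test (RefSeq, build GRCm38.p6, each read on its gene's strand). Pfkm (chr15:98092589-98132451, plus strand) has 4 annotated starts, and the windows before the first and the last, 19471 bases apart, are given. Pfkp lies at chr13:6579768-6648777, minus strand. Capitals mark matches on either strand to the E-box CACGTG, which holds the hypoxia response core ACGTG on both strands, and to the related core GCGTG.
Pfkm, first start, chr15:98092339-98092588: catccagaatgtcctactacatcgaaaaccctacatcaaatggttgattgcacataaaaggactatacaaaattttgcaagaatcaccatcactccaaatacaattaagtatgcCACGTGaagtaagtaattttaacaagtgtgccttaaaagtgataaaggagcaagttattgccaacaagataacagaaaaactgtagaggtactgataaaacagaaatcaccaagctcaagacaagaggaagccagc
Pfkm, last start, chr15:98111810-98112059: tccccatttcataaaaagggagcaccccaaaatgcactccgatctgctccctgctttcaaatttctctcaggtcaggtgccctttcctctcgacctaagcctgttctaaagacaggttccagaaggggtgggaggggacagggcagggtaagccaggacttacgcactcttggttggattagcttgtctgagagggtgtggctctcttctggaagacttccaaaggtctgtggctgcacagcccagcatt
Pfkp, chr13:6648772-6649021: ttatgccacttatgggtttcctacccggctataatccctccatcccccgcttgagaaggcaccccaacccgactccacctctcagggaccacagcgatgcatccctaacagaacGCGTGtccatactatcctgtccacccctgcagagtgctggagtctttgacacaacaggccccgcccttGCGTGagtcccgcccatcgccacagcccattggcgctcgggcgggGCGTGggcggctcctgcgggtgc
The first Pfkm window holds 1 E-box, the last Pfkm window no match, and the Pfkp window 3 GCGTG matches. Of 32851 such mouse windows, 16.6% hold ACGTG, 28.2% hold GCGTG and 6.02% hold CACGTG. Of 49 windows of 33 of the genes described here, the shares are 36.7%, 53.1% and 8.16%. The binding-site core of the muscle factor MEF2, searched on both strands, is in none of the 3 windows and in 3.2% of all windows. These are matches of letters, and no binding was measured.

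Pfkm counts were high, with a low of 975 CPM, a median of 1027 CPM and a high of 1138 CPM in kidney disease, against 1032, 1197 and 1295 CPM in wild type. All 7 kidney disease animals were below the wild-type mean and 4 were below the lowest wild-type animal. The fold was 0.877 (log2 change -0.19, SE 0.0594, interval -0.31 to -0.06, adjusted p = 0.144). DESeq2 gave nearly the same change (-0.19) with an adjusted p of 0.0257, and leaving out wild type 7 gave -0.22 with edgeR's adjusted p = 0.0427. In that fit 0.958% of all genes were called higher and 0.939% lower. Across the planned settings that left Pfkm uncalled, the adjusted p ran from 0.0549 to 0.74.

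Pfkp had 49.0, 59.2 and 71.3 CPM as the lowest, median and highest kidney disease animal, against 45.7, 52.3 and 54.8 CPM in wild type. Of the 7 kidney disease animals, 6 were above the wild-type mean and 5 above the highest wild-type animal (fold 1.14, log2 change 0.19, SE 0.0683, interval 0.0445 to 0.33, adjusted p = 0.225). Its highest kidney disease animal was kidney disease 6 and its lowest wild-type animal wild type 7. Without kidney disease 6 its log2 change was 0.1334. Without both, 0 of the 35 genes were higher at an unadjusted p under 0.05. For Pfkl the log2 change was -0.12 (SE 0.0709, adjusted p = 0.553), with 6 of 7 kidney disease animals below the wild-type mean.

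In the 7 kidney disease libraries, in their numbered order, the ratio of Pfkp to Pfkm counts ran 0.0491, 0.0477, 0.0545, 0.0608, 0.0608, 0.0689 and 0.053. In the 8 wild-type libraries it ran 0.0394, 0.0434, 0.0447, 0.0419, 0.0402, 0.049, 0.0443 and 0.0447. Of the 7 kidney disease libraries, 6 were above the highest wild-type library, and kidney disease 2 lay just under it. The log2 ratio averaged -4.16 ± 0.189 in kidney disease and -4.53 ± 0.0993 in wild type (SD, n = 7 and 8), a difference of 0.37 (exact two-sided permutation p = 0.000466 over 6435 splits, adjusted p = 0.0042 over 9 ratios). Within the libraries led by mt-Co1 the difference was 0.36 (exact permutation, adjusted p = 0.0429). Within those led by Ttn it was 0.32 with 3 against 2 libraries (exact permutation p = 0.2). Leaving out any 1 library gave 0.32 to 0.41, with exact permutation adjusted p from 0.003 to 0.0105. Without both kidney disease 6 and wild type 7 it was 0.32 (exact permutation, adjusted p = 0.0157).

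**Figure D3:**
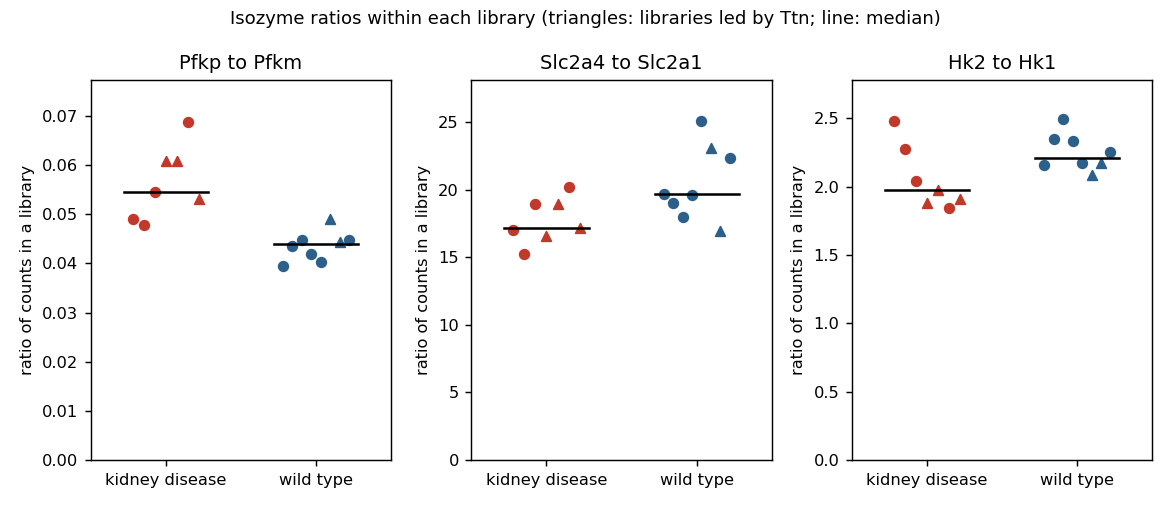
Each point is the ratio of raw counts of 2 genes within 1 library, with kidney disease left of wild type, triangles for libraries led by Ttn and a line at the group median. For Pfkp to Pfkm, 6 of 7 kidney disease points lie above the highest wild-type point, while for Slc2a4 to Slc2a1 and Hk2 to Hk1 the groups overlap more.

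Markers of other cells moved with the same groups. Of 12 macrophage and myeloid markers 9 rose in kidney disease, and their summed level had a low of 420 CPM, a median of 428 CPM and a high of 599 CPM in kidney disease, against 298, 335 and 365 CPM in wild type, with no overlap. Of 8 fibroblast markers 4 rose (summed 856, 948 and 1011 CPM in kidney disease against 755, 822 and 914 CPM in wild type). Kidney disease 6 had both the highest macrophage sum and the highest Pfkp to Pfkm ratio, and kidney disease 1, with the next highest macrophage sum (551 CPM), had the next lowest ratio of its group. Of 5 platelet markers 4 were tested and 1 rose, Pf4, which resident cardiac macrophages also express, while Gp1bb was at 0 in every library. Of 8 cardiomyocyte markers 0 were called in either direction and 3 were lower at an unadjusted p under 0.05, and their sum had a low of 66441 CPM, a median of 67994 CPM and a high of 74588 CPM in kidney disease, against 66927, 78368 and 88813 CPM in wild type. Kidney disease 4, 5 and 6 had the lowest cardiomyocyte sums of their group (66441, 67369 and 66545 CPM) and its highest Pfkp to Pfkm ratios. Wild type 1 had the highest sum and the lowest ratio of its group (0.0394). Wild type 7, with the lowest sum of its group, did not have its highest ratio (0.0443). The part of these cells in the ratio was not tested, and in bulk tissue fewer cells of a type and less RNA per cell cannot be told apart.

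Both genes also share bases with neighbours, and the strand setting of the counting is not given. Pitrm1, on the opposite strand, covers 5.6% of the Pfkp exon bases, and its own log2 change was -0.10 (adjusted p = 0.443). Senp1, also opposite, and Gm26513, on the same strand, together cover 10.7% of the Pfkm exon bases. The log2 change of Senp1 was 0.0311 (adjusted p = 0.906), and Gm26513 averaged 0.194 CPM in kidney disease and 0.285 CPM in wild type.

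Fructose 2,6-bisphosphate, the strongest activator of phosphofructokinase, is made and broken down by the bifunctional PFKFB enzymes. Pfkfb2, the heart form, had 31.8, 41.1 and 52.3 CPM as the lowest, median and highest kidney disease animal, against 27.5, 40.5 and 45.7 CPM in wild type (log2 change 0.08, SE 0.11, adjusted p = 0.859). Pfkfb1, known best from liver and skeletal muscle, had the lowest log2 change of the 35 genes, -0.31 (SE 0.13, interval -0.58 to -0.0482, fold 0.806, adjusted p = 0.293). Its level had a low of 9.4 CPM, a median of 10.8 CPM and a high of 14.9 CPM in kidney disease, against 11.1, 14.0 and 18.4 CPM in wild type, and 4 of 7 kidney disease animals were below the lowest wild-type animal. For Pfkfb3, the inducible form, it was -0.0429 (SE 0.17). Per length, Pfkfb2 made up 56.2% ± 7.21 of the PFKFB transcripts in kidney disease and 51.3% ± 7.73 in wild type, and Pfkfb1 27.7% ± 3.76 in kidney disease and 32.8% ± 5.01 in wild type (SD, n = 7 and 8).

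The 9 genes from aldolase to pyruvate kinase include the 2 most abundant of the 35 per length of exon in wild type, Aldoa and the muscle enolase Eno3. Gapdh has 4133 exon bases, against 1420 in its longest protein-coding transcript, and Eno3 has 1739 against 1564. Ranks by transcript length were not computed. In 8 of the 9 the log2 change was above 0, with a median of 0.05, but at an unadjusted p under 0.05 there was only Gapdh, and none passed after adjustment. Gapdh, the dehydrogenase that makes the first NADH of the pathway and a common loading control, had 1773, 2073 and 3055 CPM as the lowest, median and highest kidney disease animal, against 1473, 1935 and 2096 CPM in wild type. Of the 7 kidney disease animals, 6 were above the wild-type mean and 3 above the highest wild-type animal (fold 1.16, log2 change 0.22, SE 0.10, interval 0.005 to 0.43, adjusted p = 0.388). Without kidney disease 6 and wild type 7 the Gapdh change was 0.0761 (adjusted p = 0.638).

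Aldoa, the muscle aldolase, had 2005, 2284 and 2842 CPM in kidney disease against 1716, 2285 and 2406 CPM in wild type (0.09, SE 0.0821, adjusted p = 0.754). Its group medians were nearly equal, and 4 of 7 kidney disease animals were above the wild-type mean. Eno3 had 913, 1031 and 1372 CPM in kidney disease against 804, 1085 and 1209 CPM in wild type (0.05, SE 0.0948, adjusted p = 0.898). Pgam2, the muscle phosphoglycerate mutase, had 364, 387 and 550.1 CPM in kidney disease against 317, 413.5 and 473.5 CPM in wild type (0.0311, SE 0.0922, adjusted p = 0.9403). For both, the highest kidney disease animal lay above the wild-type range and the kidney disease median below the wild-type median.

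Pkm, which encodes the pyruvate kinase of muscle and most other tissues, was the gene of the 9 with a log2 change below 0 (-0.07, SE 0.0689, adjusted p = 0.756). It had 908, 1012 and 1105 CPM in kidney disease against 843, 1070 and 1157 CPM in wild type. Triose phosphate isomerase (Tpi1, 0.14, SE 0.0894), phosphoglycerate kinase (Pgk1, 0.13, SE 0.0916), the non-muscle mutase (Pgam1, 0.0353, SE 0.12) and the ubiquitous enolase (Eno1, 0.0401, SE 0.0757) all had intervals that included 0. Muscle forms made up 97.2% of the mutase transcripts and 96.3% of the enolase transcripts per length in either group. The Pgam1 to Pgam2 and Eno1 to Eno3 ratios differed by 0.0054 and -0.0054 on the log2 scale (exact permutation, adjusted p = 0.952 for both).

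The summed level of these 9 genes had a low of 6818 CPM, a median of 7647 CPM and a high of 10121 CPM in kidney disease, against 5808, 7743 and 8147 CPM in wild type. The highest value was kidney disease 6 and the lowest wild type 7. With both left out, 3 of the 9 genes had a log2 change above 0 and 6 below, and the median was -0.0408. Leaving out kidney disease 6 alone or wild type 7 alone gave 5 genes above 0 in each case. These genes were also lower in the libraries led by Ttn than in those led by mt-Co1, by a median of 0.25 on the log2 scale in kidney disease and 0.29 in wild type, and 27 of the 35 genes were lower there in both groups. Within the libraries led by mt-Co1, 8 of the 9 had a log2 change above 0, with a median of 0.0819. Within those led by Ttn, 3 against 2 libraries with wild type 7 among the 2, it was 9 of 9, with a median of 0.1544.

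Several of these genes have near copies in the genome, so reads may have been shared or lost. At 95% identity over at least 75 bases, 80 other genes, 78 of them pseudogenes, matched Gapdh and together covered 88% of its transcript, with a summed level of 103 CPM. Matches covered 85.6% of the Eno1 transcript, 68.8% of Pgk1, 65.5% of Pkm, 54.6% of Gpi1, 43.1% of Pgam1 and 19.3% of Tpi1. No such match was found for Pfkm, Pfkl, Pfkp, Hk1, Hk2, Aldoa, Pygm or Pygb.

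**Figure D4:**
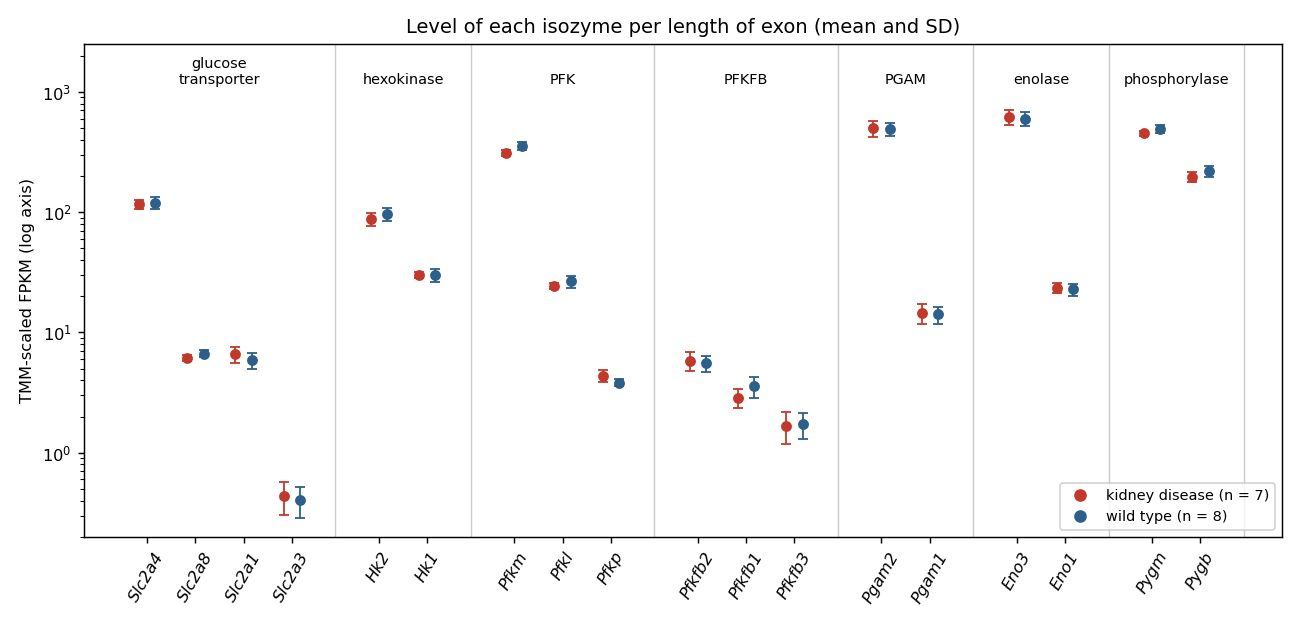
Points and bars are the mean and SD of each isozyme's level per length of exon (TMM-scaled FPKM, log axis), kidney disease left of wild type within each pair. Slc2a4, Hk2, Pfkm, Pfkfb2, Pgam2, Eno3 and Pygm are the highest of their families in both groups and no family changes its leading gene.

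On the glycogen side no gene passed. The log2 change was below 0 in 4 of the 5 breakdown genes and in 1 of the 4 synthesis genes, and without kidney disease 6 and wild type 7 it was below 0 in 4 of the 5 and in 3 of the 4. The difference between the groups of genes was not tested. Pygm, the muscle phosphorylase, was the third most abundant of the 35 genes per length of exon in wild type, a rank that depends on the length used. It had 1330.4, 1466 and 1541 CPM as the lowest, median and highest kidney disease animal, against 1384.5, 1622 and 1715 CPM in wild type. All 7 kidney disease animals were below the wild-type mean, and 1 was below the lowest wild-type animal (fold 0.918, log2 change -0.12, SE 0.0587, adjusted p = 0.403). Pygb, the brain form, which fetal and adult heart also express, had 837, 923 and 1108 CPM in kidney disease against 879, 1069 and 1214 CPM in wild type (-0.16, SE 0.0772, adjusted p = 0.395). For Pygb, 6 of 7 kidney disease animals lay below the wild-type mean.

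Phosphorylase kinase, which activates phosphorylase on calcium and adrenergic signals, has Phka1 as its muscle alpha subunit, Phkb as its beta subunit and Phkg1 as its muscle catalytic subunit. Phkb had 54.9, 61.8 and 65.95 CPM in kidney disease against 58.7, 67.5 and 73.6 CPM in wild type, and all 7 kidney disease animals were below the wild-type mean (-0.12, SE 0.055, adjusted p = 0.376). The log2 change was 0.10 for Phka1 (SE 0.0641, adjusted p = 0.586) and, for Phkg1, -0.08 (SE 0.073, adjusted p = 0.717). The summed level of the 5 breakdown genes had a low of 2378 CPM, a median of 2521 CPM and a high of 2712 CPM in kidney disease, against 2502, 2778 and 3034 CPM in wild type. The median log2 change of the 5 was -0.12, and without kidney disease 6 and wild type 7 it was -0.1187. With library totals in place of TMM factors the median was -0.054, while the median of all genes moved to 0.0681.

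**Figure D5:**
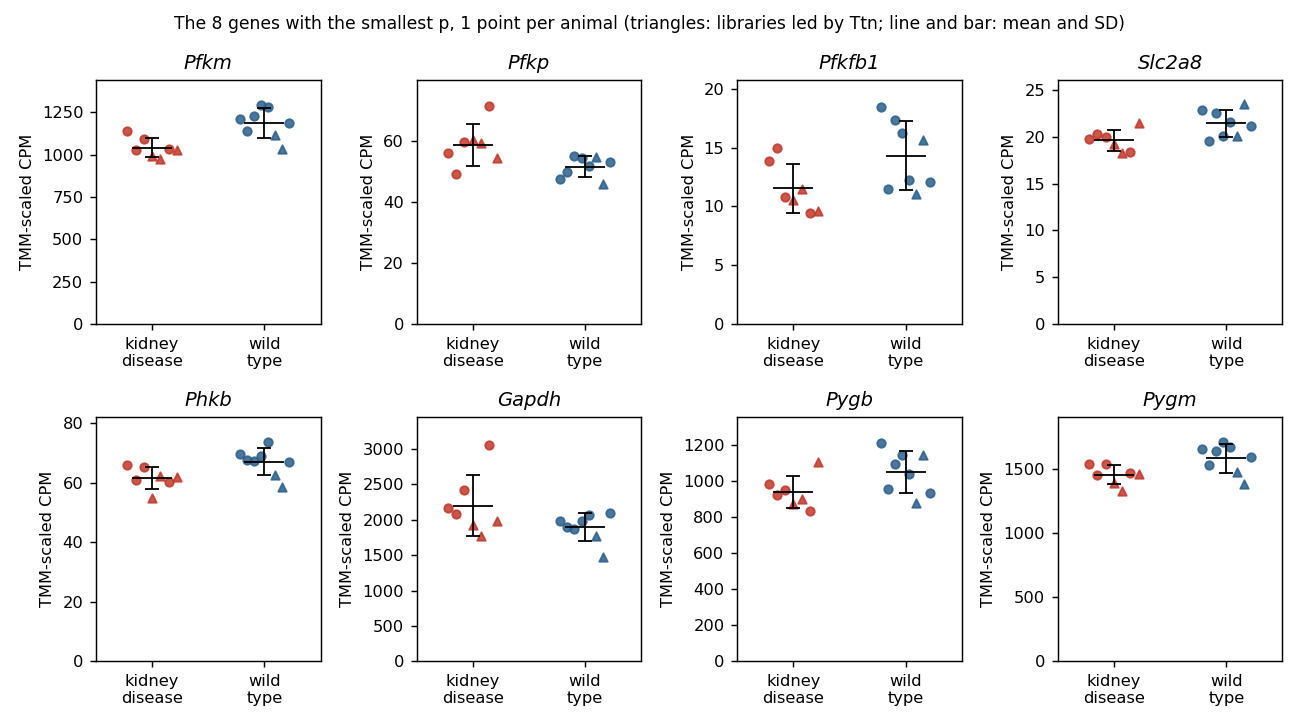
Each point is 1 animal for the 8 genes with the smallest p, in TMM-scaled CPM with the axis starting at 0, kidney disease left of wild type, triangles for libraries led by Ttn, and line and bar for mean and SD. Kidney disease values tend to sit lower for Pfkm, Pfkfb1, Slc2a8, Phkb, Pygb and Pygm and higher for Pfkp and Gapdh, with overlap in all 8.

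Gys1, the muscle glycogen synthase, had 144, 154 and 175 CPM as the lowest, median and highest kidney disease animal, against 136, 172 and 187.7 CPM in wild type. In 6 of 7 kidney disease animals it was below the wild-type mean (-0.12, SE 0.0673, interval -0.26 to 0.0239, adjusted p = 0.524). For Ugp2, which makes the UDP-glucose that synthase uses, the log2 change was 0.20 (SE 0.11, adjusted p = 0.495), with 5 of 7 kidney disease animals above the wild-type mean, and 0.0499 without kidney disease 6 and wild type 7. Gyg, the glycogenin that primes the chain, had 0.09 (SE 0.0873), and the branching enzyme Gbe1 had 0.0217 (SE 0.0891). The ratio of Gys1 to Pygm differed by 0.0067 on the log2 scale and that of Pygb to Pygm by -0.039 (exact permutation, adjusted p = 0.952 and 0.944).

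Of the 4 genes whose proteins bring phosphatase or other factors to glycogen, Ppp1r3c encodes a targeting subunit of protein phosphatase. It had 80.0, 143 and 181 CPM as the lowest, median and highest kidney disease animal, against 83.0, 141 and 151 CPM in wild type (0.09, SE 0.15, interval -0.22 to 0.39, adjusted p = 0.884). Ppp1r3a, the striated muscle targeting subunit, had -0.09 (SE 0.0648), the glycogen-binding protein Stbd1 had 0.13 (SE 0.14) and Epm2a, the gene of the glycogen phosphatase laforin, had -0.07 (SE 0.0675). The ratio of Ppp1r3c to Ppp1r3a differed by 0.17 on the log2 scale (exact permutation, adjusted p = 0.717).

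A list of 97 other genes of glucose handling was read beside these. Of its genes 96 were found and 90 were tested, and edgeR called 0 in either direction, against 1.28% of all genes tested. At an unadjusted p under 0.05, 5 were higher (6.84% of all genes tested) and 11 lower (5.55% of all genes tested). The median log2 change of the list was -0.0243. DESeq2 called 1 higher and 2 lower, where it called 2.21% of its genes higher and 1.53% lower, and limma-voom called 0. The 3 that DESeq2 called were Srebf1, a transcription factor of lipid and glucose genes (edgeR 0.21, SE 0.0595, adjusted p = 0.0947), Fbp2, the muscle fructose bisphosphatase that opposes phosphofructokinase (-0.33, SE 0.0922, adjusted p = 0.0895), and Mlxip, which encodes the glucose-sensing factor MondoA (-0.23, SE 0.0707, adjusted p = 0.1299). Fbp2 had 14.3, 19.3 and 20.5 CPM in kidney disease against 17.6, 23.6 and 26.6 CPM in wild type. Arrdc4, a MondoA target that restrains glucose uptake, had 14.6, 17.6 and 24.2 CPM in kidney disease against 11.1, 14.8 and 17.5 CPM in wild type (0.33, SE 0.10, adjusted p = 0.144).

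Among the other glycolytic isozymes Bpgm, the bisphosphoglycerate mutase abundant in red cells, had a value of -0.21 on the log2 scale (SE 0.0827, adjusted p = 0.263). All 7 tested erythroid markers were also lower at an unadjusted p under 0.05, with none called, and their sum had a low of 310 CPM, a median of 546 CPM and a high of 822 CPM in kidney disease, against 559, 864 and 1076 CPM in wild type. The part of red cells in the Bpgm value was not tested. Among glycogen genes Ppp1r3d, another targeting subunit, had -0.19 (adjusted p = 0.163), the lysosomal glucosidase Gaa -0.18 (adjusted p = 0.242) and the liver alpha subunit Phka2 -0.14 (adjusted p = 0.262). Among insulin and AMPK genes the beta subunits of AMPK differed in sign, Prkab2 with -0.23 (adjusted p = 0.171) and Prkab1 with 0.16 (adjusted p = 0.2604), and the insulin-pathway kinase Akt1 had 0.18 (adjusted p = 0.284). In the hexosamine branch Gfpt2, a rate-limiting enzyme, had 0.19 (adjusted p = 0.173) and Ogt, the transferase that attaches its product to proteins, had -0.13 (adjusted p = 0.357). H6pd, which feeds the pentose pathway in the endoplasmic reticulum, had -0.15 (adjusted p = 0.447). Other transporters were scarce, and the 3 with the smallest p, Slc2a5, Slc2a9 and Slc5a2, had adjusted p from 0.587 to 0.793.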

How the data were processed

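RNA-seq libraries from 7 kidney disease and 8 wild-type ventricles were compared, and the design text calls the animals biological replicates. Per the labels, every RNA integrity number was 8 or more and the library kit was KAPA RiboErase, which removes ribosomal RNA. Per the submitters' processing notes, bcl2fastq, STAR 2.7.9a, Subread and featureCounts 2.0.3 were used with GRCm38. How strand and shared reads were counted is not given in the sources used here.

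Each deposited table holds raw counts per gene. The deposited CPM column is the count scaled to its library total, and the deposited FPKM column is that CPM per kilobase of exon, both found equal to a recomputation from the counts (relative tolerance 1e-06) and not tested. Symbols came from GENCODE M21 (98.8% of genes had identical coordinates) and upstream sequences from RefSeq. No line lacked a gene. Of 2 Ensembl genes named Aldoa, the one with more counts was used. No pair of libraries within a group agreed within sampling noise (49 pairs, lowest chi-square per degree of freedom 9.16).

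Genes were kept with filterByExpr, minimum count 10. After TMM scaling, edgeR 4.0.16 (R 4.3.3) tested group as the only term by quasi-likelihood, with Benjamini-Hochberg adjustment over all genes. Standard errors are the log2 change over the square root of F. Ratios of counts within a library (0.5 added to each) were compared by exact two-sided permutation tests over 6435 splits, adjusted over 9 ratios, and the smallest p possible is 0.0001554. Genes given in full are the 8 with the smallest p and a set of key enzymes, plus up to 3 of each group of the wider list, of which 1 gene is not reported here. Members, lists and tests were chosen with earlier results of these data known. Alternatives were RLE and upper-quartile scaling, library totals, DESeq2 1.42.0, limma-voom 3.58.1, other filters, no mitochondrial genes, a replicate block, the library split, each library left out and, chosen after seeing the data, kidney disease 6 and wild type 7 left out together. The edgeR step was tested on simulated data. The spread between animals, not counting error, limits precision at this depth.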

Additional observations from a re-analysis of the deposited data

Results flagged for a closer look

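Of 88 sets of 7 or 8 animals examined for an animal far from its group (each gene and each ratio in each group), 9 held one, where chance alone gives about 1 in 20 sets, or 4.4. The sets share animals and the ratios reuse genes, so they are not independent, and the excess was not tested. Kidney disease 6 was far above its group in Tpi1 (717.8 CPM, the next animal at 584.7 CPM), Pgam2 (550.1 CPM, next 443 CPM) and Gyg (146.7 CPM, next 119 CPM). Wild type 7 was far below its group in Pfkl (133.1 CPM, next 173.5 CPM), Pgk1 (151.3 CPM, next 201.3 CPM), Gys1 (136.2 CPM, next 164 CPM) and Gyg (80.37 CPM, next 104 CPM). Its Pfkl to Pfkm count ratio was also the lowest of its group, 0.129 against 0.147 in the next animal. Wild type 1 was far below its group in Pfkfb2, at 27.53 CPM, the next animal at 38.0 CPM. Gyg, the primer of glycogen, was the gene picked out in both groups. The levels of Pfkm and Pfkp and the Pfkp to Pfkm ratio were not among the 9.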

How the results depend on the processing

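Over the 35 genes and 13 settings that used all libraries or a named subset, 427 of 455 changes kept their direction and side of the threshold, as did 508 of 525 with 1 library left out. Genes at an unadjusted p under 0.05 and higher (2) numbered 10 with library totals (14.4% of all genes tested), 1 with limma-voom (6.78%), 4 with the replicate block (7.09%), 9 with the library split as covariate (10.2%), 5 within the mt-Co1-led libraries (7.61%) and 0 without kidney disease 6 and wild type 7 (7.23%). Those lower (6) numbered 1 with library totals (2.37% of all genes tested), 2 with no filter (5.24%) and 1 within the Ttn-led libraries (3.86%). Genes called lower numbered 1 with DESeq2 (1.53% of all genes tested) and 2 without kidney disease 6 and wild type 7 (1.24%). In the wider list 3 were called higher with library totals and 1 with DESeq2 (2.21%). Those called lower numbered 2 with DESeq2 (1.53%), 1 with the split and 1 without that pair (1.24%). With library totals the share of all genes called higher lay between 0.811% (main setting) and 2.21% (DESeq2). With the split the share called lower lay between 0.473% (main setting) and 1.53% (DESeq2). Whether the list exceeded these shares was not tested. The causes were not tested.

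Signs turned for Slc2a4 (0.0292) and Pfkfb3 (0.0184) with library totals and (0.0049 and 0.0059) with the split. They turned within the mt-Co1-led libraries for Hk1 (-0.0469), Pfkfb3 (0.0683), Ppp1r3c (-0.0101) and the Pgam1 to Pgam2 ratio (-0.0138). Within the Ttn-led libraries they turned for Slc2a3 (-0.1926), Slc2a4 (0.0541), Hk2 (0.0075), Pfkl (0.0103), Pkm (0.0002), Stbd1 (-0.1106), Epm2a (0.0119), Pgam1 to Pgam2 (-0.0036) and Gys1 to Pygm (-0.0025), and Pfkp to Pfkm (0.3188) could not pass there. Without kidney disease 6 and wild type 7 they turned for Hk1 (-0.0079), Pfkfb3 (0.0306), Aldoa (-0.0121), Pgam1 (-0.1133), Pgam2 (-0.0921), Eno1 (-0.0408), Eno3 (-0.0627), Gyg (-0.0304), Gbe1 (-0.0848), Ppp1r3c (-0.066), Pgam1 to Pgam2 (-0.0249), Eno1 to Eno3 (0.0234) and Pygb to Pygm (0.0366), and Slc2a4 to Slc2a1 (-0.2716) passed. For Slc2a4 to Slc2a1 that shift was built into the choice of the libraries left out.

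With 1 library left out, 0 to 1 genes were called lower, the 1 without wild type 7, where 0.939% of all genes were called lower. At an unadjusted p under 0.05, 1 to 3 were higher (5.73% to 7.4% of all genes tested) and 1 to 7 lower (4.51% to 6.8%). The median log2 change ran from -0.021 to 0.0545. In the wider list 0 to 1 were called lower, 1 without wild type 6 (54 of all 20500 genes) and 1 without wild type 8 (105 of 20558). Gene changes with a turn of sign ran from -0.031 to 0.0526 for Hk1, -0.1895 to 0.0298 for Pfkfb3, -0.0499 to 0.088 for Pgam1, -0.0462 to 0.0681 for Pgam2, -0.0014 to 0.0724 for Eno1, -0.0166 to 0.0869 for Eno3 and -0.0344 to 0.0576 for Gbe1. Ratios ran from -0.18 to -0.11 for Hk2 to Hk1, -0.0326 to 0.0212 for Eno1 to Eno3, -0.0368 to 0.0467 for Pgam1 to Pgam2, -0.0776 to 0.0071 for Pygb to Pygm and -0.0116 to 0.0244 for Gys1 to Pygm.

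The sample titles do not say whether shared replicate numbers pair the animals, and 7 pairs are too few to decide it. The correlation of same-numbered animals ran from -0.196 to 0.416. Its median was 0.0676, against -0.0373 for animals with unlike numbers, and 2 pairs correlated best with their own number. With the replicate block, 66 genes of all tested were called higher and 50 lower, against 168 and 98 without it. Under the block Hk1 (-0.0034), Pgam1 to Pgam2 (-0.0076) and Gys1 to Pygm (-0.0032) turned sign, and Pfkp to Pfkm differed by 0.3751 (exact permutation p = 0.0156, the smallest that 7 pairs allow, adjusted p = 0.1406).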
